A study of Mus musculus with 9 samples.

Results

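A set of 46 genes of the autophagy machinery was examined: the starting complexes, the membrane supply, the enzymes that attach ATG8 proteins to lipid, the ATG8 proteins themselves, the receptors that bring cargo, and a few fusion and extraction factors. They were chosen by gene symbol alone, with no filter on level, and 40 of the 46 were among the 7197 genes of the deposited table. Atg14, Atg2b, Atg9a, Atg10, Gabarapl1 and Tecpr1 had no row there and were not analysed here. Of the 40 genes, 10 belong to initiation, 7 to membrane supply, 14 to conjugation, 7 to the cargo receptors and 2 to fusion and extraction.

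The RNA came from neutrophils (CD45+, CD11b+, Ly6G+) sorted from the bone marrow of mice aged 2 months. Among the libraries 5 were Rragc+/+ and 4 were RragcS74N/+, from mice that carry 1 germline copy of Rragc with the S74N change in every cell of the body from conception, so that an effect within neutrophils and an effect of the surrounding tissue cannot be told apart. Neither genotype received a treatment, the labels give no batch or date, and the spread between libraries is that between samples the labels list separately. Reads were 3′-end tags, and values were read counts per gene divided by 1 size factor per library, called normalized read counts below.

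Autophagy wraps a piece of cytoplasm in a growing double membrane and delivers it to the lysosome. The ULK1 kinase complex and the class III PI3K complex start the membrane, the ATG7, ATG3 and ATG12–ATG5–ATG16L1 enzymes attach LC3 and GABARAP proteins to it, and receptors such as p62 tie cargo to those proteins. RagC carries nutrient signals to mTORC1, a kinase complex that restrains ULK1 and holds TFEB, a transcription factor of lysosomal and autophagy genes, outside the nucleus, and neutrophil precursors depend on autophagy as they mature.

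TFEB and its relatives bind E-boxes with the core CACGTG, so the members' promoters were read for that core. RefSeq promoter windows (build GRCm38.p6, 250 bases before to 50 after the start) were matched for 32 of the 40 genes. The core occurred in 4 of these 32 genes (12.5%), against 11.96% of the 5684 listed genes with a window and 7.15% of all 32851 windows. It is its own reverse complement, so 1 search covers both strands. The windows of these 4 genes are printed because Atg7 and Bnip3 are also the members with the smallest unadjusted p values, and the capitals mark CACGTG. The positions are chr16:45158579-45158878 on the plus strand for Atg3, chr10:44268089-44268388 on the plus strand for Atg5, chr6:114670846-114671145 on the plus strand for Atg7 and chr7:138909457-138909756 on the minus strand for Bnip3.
Atg3: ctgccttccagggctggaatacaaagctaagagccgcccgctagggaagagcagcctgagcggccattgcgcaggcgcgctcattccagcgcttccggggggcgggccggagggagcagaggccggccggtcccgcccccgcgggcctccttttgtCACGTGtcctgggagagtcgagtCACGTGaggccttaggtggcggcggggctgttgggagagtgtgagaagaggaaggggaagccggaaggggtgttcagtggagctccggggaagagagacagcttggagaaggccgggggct
Atg5: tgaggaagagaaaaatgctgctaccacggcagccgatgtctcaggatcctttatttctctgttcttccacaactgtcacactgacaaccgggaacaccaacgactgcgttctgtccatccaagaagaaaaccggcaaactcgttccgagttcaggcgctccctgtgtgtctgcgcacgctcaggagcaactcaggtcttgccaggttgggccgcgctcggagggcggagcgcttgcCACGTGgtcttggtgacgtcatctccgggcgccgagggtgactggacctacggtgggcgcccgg
Atg7: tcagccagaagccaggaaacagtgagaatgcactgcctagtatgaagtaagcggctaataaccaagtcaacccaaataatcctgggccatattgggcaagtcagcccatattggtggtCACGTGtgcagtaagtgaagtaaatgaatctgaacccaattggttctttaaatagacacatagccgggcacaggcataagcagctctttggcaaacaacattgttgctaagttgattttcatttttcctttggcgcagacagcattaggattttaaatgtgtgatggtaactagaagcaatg
Bnip3: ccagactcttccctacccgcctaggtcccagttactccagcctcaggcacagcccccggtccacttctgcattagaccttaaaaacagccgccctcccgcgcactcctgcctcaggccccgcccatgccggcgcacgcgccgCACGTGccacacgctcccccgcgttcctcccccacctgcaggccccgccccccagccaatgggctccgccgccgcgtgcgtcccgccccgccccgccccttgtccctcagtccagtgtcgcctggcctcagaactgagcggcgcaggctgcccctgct

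In the Atg3 window the core starts 94 and 71 bases before the start, in Atg5 14 bases, in Atg7 132 bases and in Bnip3 108 bases. The longer TFEB site called the CLEAR element, the core with GT before it and AC after it, was in 0 of the 32 genes and 1.02% of listed genes, and its shorter form TCACGTGA was in 1 gene, Atg3 (3.13%, against 2.64%). Searched on both strands, the AP-1 or MAF site TGACTCAGC and the FOXO site GTAAACA were also in 0 of the 32, against 0.440% and 3.40% of listed genes. A match in these letters describes the window and is not a bound site. The 4 genes with the core had log2 changes of both signs: the log2 change was 0.25 for Atg3 and 0.16 for Atg5 but -0.56 for Atg7 and -0.48 for Bnip3, and the 27 tested genes with a window but no core spanned -0.51 to 0.70.

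Recovered reads ran from 1214295 to 1973957 in the 8 libraries whose whole reads were recovered. Reads of Rragc+/+ replicate 5 were not counted, because the check used did not accept its value per read (1.003). All 12 neutrophil markers were listed, with a summed level between 129869 and 223885 in every library, and 0 of 4 platelet markers were listed. Of 6 B cell markers 2 were listed, with a sum between 86.2 and 145.5 in every library. Only Cd3d was listed of 6 T and NK cell markers (14.5 to 28.9). Of 6 monocyte markers only Csf1r was listed, at 339 in Rragc+/+ replicate 2 and 71.1 to 189 elsewhere. The part of other cell types in the libraries was not tested. Erythroid, eosinophil and basophil markers are given below. Rragc+/+ replicate 2 stood apart among the controls, and it had the fewest reads of the 8 counted libraries (1214295). It held the highest or lowest Rragc+/+ value of 28 of the 40 autophagy genes (70.0%), against 60.0% of all 6673 genes tested, so the log2 change without it is given beside each gene named with a log2 change that it moved by more than 0.05. Rragc itself had 71.0 ± 10.3 (SD, n = 5) normalized read counts in controls against 65.8 ± 9.52 (SD, n = 4) in RragcS74N/+. A coding change leaves the 3′ tags as they are, so this level does not check the genotype labels.

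Most of the listed autophagy genes were expressed above the typical gene of the table. Each transcript is read once at its 3′ end, so levels are compared between genes without division by length. Of the 40, 27 had a mean level above the median of all listed genes. Map1lc3b, which encodes LC3B, had the highest level, from 1310 to 1604 normalized read counts, and exceeded the next gene in all 9 libraries. Behind it came Gabarap with a mean of 700.3, Tax1bp1 with 698, Vmp1 with 614, Gabarapl2 with 544 and Atg3 with 449, and each of these exceeded the next in only 5 to 7 of the 9 libraries, so their order is not settled by these data. A mean of at least 300 was reached by 9 genes, 8 lay between 100 and 300, 22 lay between 10 and 100, and only Zfyve1, with a mean of 8.21, lay under 10. Initiation genes had a median level of 56.7 and a highest mean of 254 (Rb1cc1), whereas conjugation genes had a median of 84.0 and cargo receptors of 100.2.

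**Figure D1:**
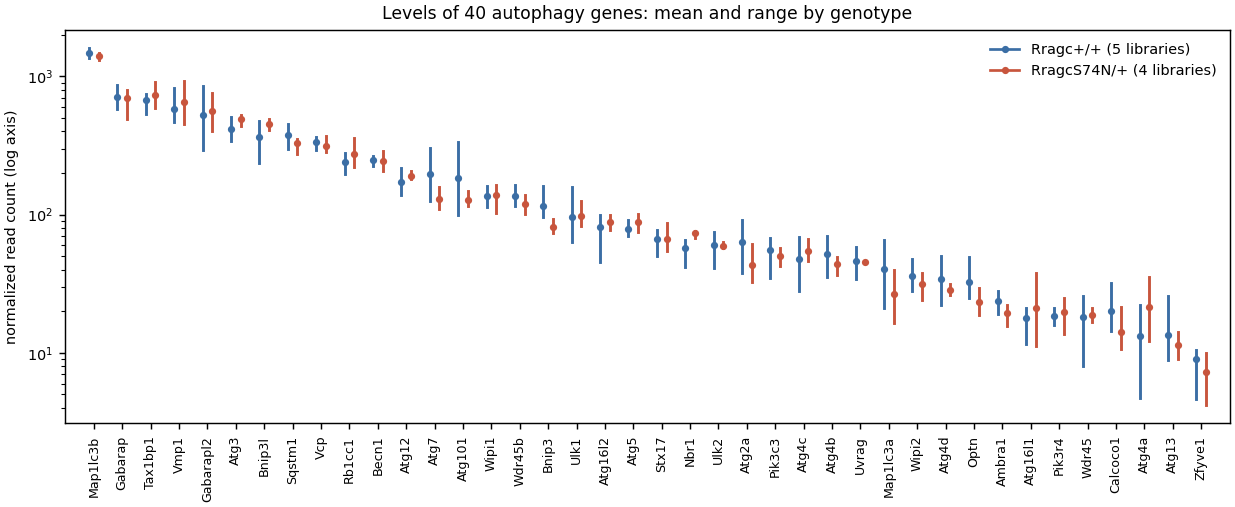
Normalized read count (log axis) of the 40 listed autophagy genes in order of their mean, with points for the mean and lines for the lowest to highest library of each genotype. Map1lc3b lies above all others in every library, and the ranges of the genotypes overlap for all genes but Nbr1 and Bnip3.

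No autophagy gene passed the adjusted threshold between genotypes. Of the 40 genes, 39 had a mean of at least 10 and were tested with limma. None of the 39 had an adjusted p under 0.05 (smallest 0.713), and 0 of all 6673 genes tested did (0.0%). Atg7 and Bnip3, 2 of the 39, had an unadjusted p under 0.05, with lower values in RragcS74N/+. The share among all genes was 5.81% (3.81% lower and 2.01% higher). Bnip3 and Nbr1 had genotypes that did not overlap, 2 of 39 against 1.69% of all genes (1.02% lower and 0.674% higher). Of the 39, 19 had a positive and 20 a negative log2 change, and their median was -0.0027 (range -0.56 to 0.70) against 0.024 over all genes. For 33 of the 39 the whole 95% interval lay between log2 changes of -1 and 1. Without Rragc+/+ replicate 5, 8 of the 39 had an unadjusted p under 0.05 (20.5%), as had 13.7% of all genes, and on the same 8 libraries edgeR gave 8 (all genes 13.4%) and DESeq2 gave 7 (all genes 12.7%), each with 0 autophagy genes past the adjusted threshold. On these 8 libraries 4 of the 39 did not overlap, against 6.32% of all genes.

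**Figure D2:**
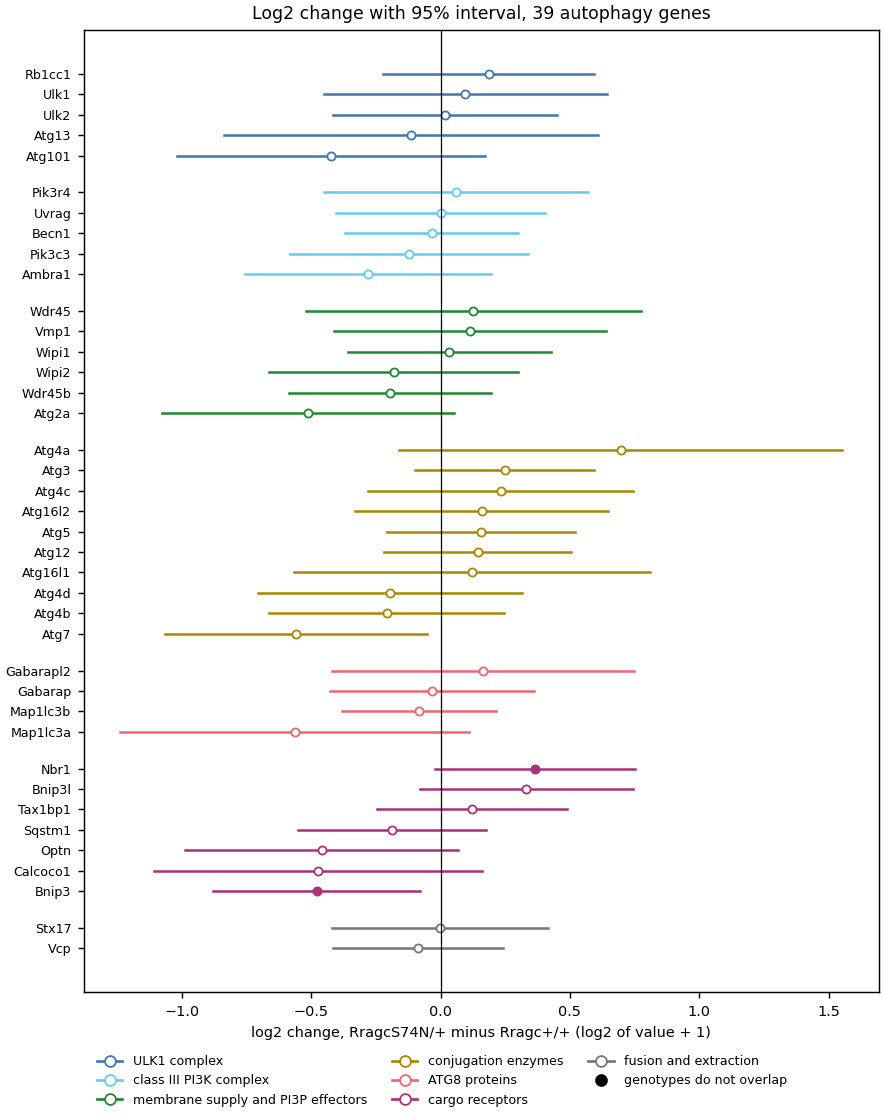
Log2 change (RragcS74N/+ minus Rragc+/+, on log2 of value + 1) of the 39 tested autophagy genes with 95% intervals, coloured by role, filled where the genotypes do not overlap. All intervals but those of Atg7 and Bnip3 cross 0.

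Initiation genes had a median log2 change of -0.02 over 10 genes, 5 positive and 5 negative. Ulk1, the kinase that starts autophagy and a direct mTORC1 target, had 158, 63.1, 83.4, 106 and 68.2 normalized read counts in Rragc+/+ and 93.5, 83.4, 126 and 88.8 in RragcS74N/+. The RragcS74N/+ values lay inside the Rragc+/+ range, and the log2 change was 0.09 (SE 0.25, 95% interval -0.45 to 0.64, adjusted p = 0.912). Its sign turned without Rragc+/+ replicate 2 (-0.033), Rragc+/+ replicate 5 (-0.0055) or RragcS74N/+ replicate 3 (-0.031). Atg101, a subunit that steadies ATG13 in the complex, had the smallest p of the ULK1 complex, with 137, 333, 199.6, 157 and 100.3 in Rragc+/+ and 116, 126, 148 and 119 in RragcS74N/+. Here Rragc+/+ replicate 2 was far above the rest, the log2 change was -0.42 (SE 0.28, adjusted p = 0.714), and without that library it was -0.18. A fit in which the dependence of each library on the base composition of 3′ ends was taken out (below, the 3′ GC trend removed) gave -0.13. Rb1cc1, the FIP200 scaffold of the complex, was its most abundant gene, with 239 ± 38.1 (SD, n = 5) and 274 ± 64.7 (SD, n = 4). Ulk2, the other ULK kinase, and Atg13 were lower in level, with means of 60.1 and 12.5 over the 9 libraries.

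In the class III PI3K complex 2 of the 5 tested genes had a positive log2 change and 3 a negative one. Becn1, its Beclin 1 subunit, had 245, 255, 243, 266 and 227 normalized read counts in Rragc+/+ against 289, 223, 251 and 208 in RragcS74N/+. RragcS74N/+ replicate 1 lay above the whole Rragc+/+ range and replicates 2 and 4 below it, the log2 change was -0.04 (SE 0.16, interval -0.37 to 0.30, adjusted p = 0.951), and it turned to 0.035 without RragcS74N/+ replicate 4 and to 0.0022 without RragcS74N/+ replicate 2. The Becn1 3′ end has a near-identical copy in Gm47050 (96.2% over 79 bases), so some of its tags are uncertain. Ambra1, which ties Beclin 1 to ubiquitin ligases, had the smallest p of the complex, with 24.4, 28.0, 20.6, 26.5 and 19.0 against 21.2, 22.4, 18.1 and 15.7. Its ranges overlapped, with a log2 change of -0.28 (SE 0.22, adjusted p = 0.740), which was -0.22 without Rragc+/+ replicate 2 and -0.14 with the 3′ GC trend removed. Uvrag, a subunit of the endosomal form of the complex, had a mean of 46.0 in Rragc+/+ and 45.4 in RragcS74N/+. The kinase subunit Pik3c3 had 55.8 and 50.2, and the regulatory subunit Pik3r4 had 18.5 and 19.7.

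Genes for membrane supply and for proteins that read PI3P, the lipid made by the class III complex, had a median log2 change of -0.07 over 6 tested genes. Atg2a, a lipid transfer protein that feeds the growing membrane, had 50.1, 91.1, 60.9, 74.8 and 38.1 normalized read counts in Rragc+/+ and 61.0, 37.6, 41.4 and 32.4 in RragcS74N/+. The highest values were Rragc+/+ replicates 2 and 4, and the lowest was RragcS74N/+ replicate 4. The log2 change was -0.51 (SE 0.26, interval -1.08 to 0.05, adjusted p = 0.713), and -0.37 without Rragc+/+ replicate 2. Removing the 3′ GC trend moved it to -0.13. The PI3P readers Wipi1, Wipi2, Wdr45 and Wdr45b had means of 135, 36.1, 18.2 and 137 in Rragc+/+ and 139.6, 31.4, 18.8 and 119 in RragcS74N/+. Wdr45 shares a strand and position with Gm45208, so its tags are uncertain. Zfyve1, a PI3P reader too low to test, had 8.98 ± 2.52 (SD, n = 5) against 7.25 ± 3.05 (SD, n = 4).

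Vmp1, a scramblase of the endoplasmic reticulum needed for autophagosome formation, was the most abundant membrane gene and split the libraries in a way that did not follow genotype. Its values were 639, 485, 465, 518 and 819 in Rragc+/+ and 457, 758, 451 and 934 in RragcS74N/+. Rragc+/+ replicate 5 and RragcS74N/+ replicates 2 and 4 were the 3 highest, and the log2 change was 0.11 (SE 0.24, adjusted p = 0.890). Of the 12 neutrophil markers 4, the granule and secreted protein genes S100a8, S100a9, Camp and Retnlg, were also highest in these 3 libraries, while Itgam and Ptprc, whose products CD11b and CD45 were used in the sort, were lowest there. The rest of the 12 were neither all highest nor all lowest there. The sum of the 12 ran from 201846 to 223885 in the 3 and from 129869 to 177215 in the others. S100a8 and S100a9, the most abundant of the 12, weigh most in that sum. Of the 7 eosinophil and basophil markers 5 were listed, none of the 5 was at 0 in any library, and 4 of the 5 were highest in the same 3 libraries (Prg2, an eosinophil granule gene, had 80.2, 140.3 and 159, against 11.2 to 33.1 elsewhere). Siglecf, the eosinophil surface marker, was not among them, with 21.1, 31.5 and 18.8 against 25.6 to 34.7. The sum of the 5 ran from 426 to 583 in the 3 libraries and from 113 to 206 in the others, with Mcpt8 and Cpa3 not listed. The log2 change of Vmp1 was -0.20 without those 3 libraries, -0.086 without RragcS74N/+ replicate 4 alone and 0.05 without Rragc+/+ replicate 2. The part of neutrophil granule genes or of eosinophil RNA in the Vmp1 level was not tested. In bulk samples fewer cells of a type and less RNA per cell cannot be told apart. The Vmp1 3′ end also overlaps the microRNA gene Mir21a on the same strand, so its tags could come from either transcript.

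Conjugation genes had the highest median of the stages, 0.13 over 14 tested genes, with 8 positive and 6 negative. Atg7, the E1-like enzyme at the head of both conjugation chains, had 178, 306, 222, 159 and 125 normalized read counts in Rragc+/+ and 158, 120.0, 129.5 and 109.7 in RragcS74N/+. Of the 4 RragcS74N/+ values, 3 lay at or below 129.5, where Rragc+/+ replicate 5 alone joined them, and Rragc+/+ replicate 2 was the highest. The log2 change was -0.56 (SE 0.24, interval -1.06 to -0.05, unadjusted p = 0.0333, adjusted p = 0.713). It was -0.38 without Rragc+/+ replicate 2 and -0.71 without replicate 5.

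Atg3, the E2-like enzyme that acts on LC3 after ATG7, had the opposite sign: the Rragc+/+ mean was 416 ± 65.1 (SD, n = 5), below the RragcS74N/+ mean of 490.3 ± 38.3 (SD, n = 4) (log2 change 0.25, adjusted p = 0.714, and 0.18 without Rragc+/+ replicate 2). Atg12, the small protein that ends up joined to ATG5, had 173 and 189, and Atg5 had 78.8 and 88.0. Atg16l1, which places the ATG12–ATG5 conjugate on membranes, and its paralog Atg16l2 had 17.7 and 82.1 in Rragc+/+. In RragcS74N/+ they had 20.9 and 88.9, and Atg16l2 was the more abundant of the pair in every library. Among the 4 ATG4 proteases, which trim ATG8 proteins and take them off lipid, Atg4a had the largest log2 change of all members (0.70, SE 0.40, interval -0.16 to 1.55, adjusted p = 0.713), from 13.3 ± 6.38 (SD, n = 5) to 21.5 ± 10.03 (SD, n = 4). The change was 0.40 without Rragc+/+ replicate 3, 0.43 without RragcS74N/+ replicate 4 and 0.75 without Rragc+/+ replicate 2. Those values rest on few reads, 5 to 34 per library in the 8 counted ones, and Atg4a has a near-identical copy, Atg4a-ps (99.1% over 423 bases), so its tags are uncertain. Atg4b had 51.8 and 43.9, Atg4c 47.6 and 54.5, and Atg4d 34.0 and 28.6.

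The summed level of the 4 listed ATG8 genes came to 2753 ± 349.9 (SD, n = 5) for Rragc+/+ libraries and 2686 ± 321 (SD, n = 4) for RragcS74N/+ libraries. Map1lc3b, which coats the autophagosome as LC3B, had 1604, 1475, 1534, 1445 and 1355 in Rragc+/+ and 1354, 1471, 1309.8 and 1459 in RragcS74N/+. The ranges overlapped, and the log2 change was -0.08 (SE 0.14, interval -0.38 to 0.22, adjusted p = 0.860). Its sign turned to 0.19 with the 3′ GC trend removed. It made up 47.9% to 58.4% of the ATG8 sum in Rragc+/+ and 48.1% to 59.8% in RragcS74N/+. Map1lc3a, the LC3A paralog, had 38.2, 65.4, 44.1, 33.0 and 21.1 against 16.6, 26.4, 39.9 and 23.0. The genotypes overlapped, with a log2 change of -0.56 (SE 0.31, adjusted p = 0.713), which was -0.37 without Rragc+/+ replicate 2 and -0.17 with the 3′ GC trend removed. Gabarap had 705 and 694. Gabarapl2 had 526 ± 212 (SD, n = 5) and 566 ± 144 (SD, n = 4), its spread set by Rragc+/+ replicate 1 at 848 and replicate 2 at 292.

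**Figure D3:**
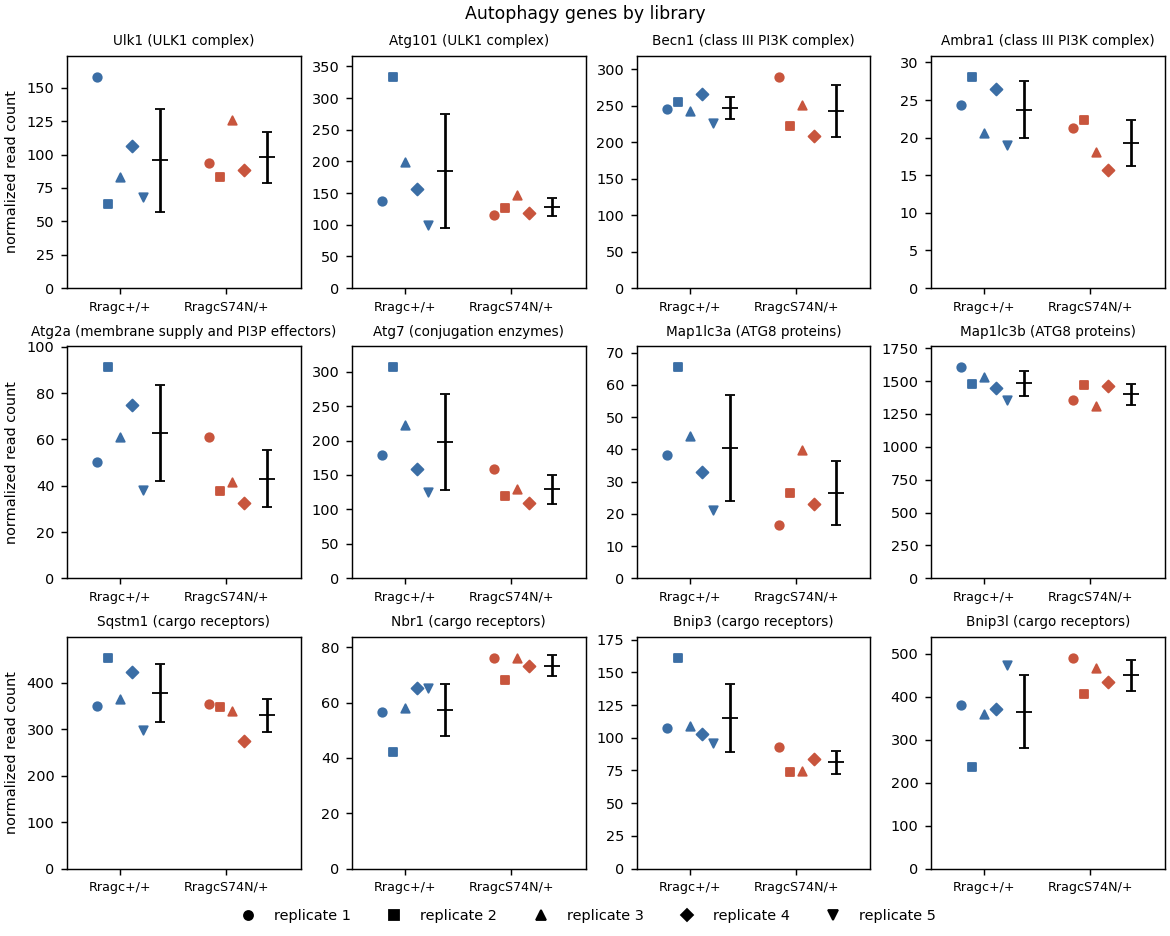
Normalized read count in each library for 12 genes, with the mean and SD beside the points of each genotype. The RragcS74N/+ points lie below all Rragc+/+ points for Bnip3 and above them for Nbr1, and overlap them for the other 10 genes.

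Cargo receptors held both genes whose genotypes did not overlap, and in opposite directions. Their median log2 change was -0.19 over 7 genes, 3 positive and 4 negative. Bnip3, a mitochondrial receptor induced by hypoxia, had 107, 161, 109, 103 and 96.3 normalized read counts in Rragc+/+ and 92.8, 74.2, 74.6 and 83.6 in RragcS74N/+. Every RragcS74N/+ library was below every Rragc+/+ library, by a margin of 3.42 between the nearest pair. The log2 change was -0.48 (SE 0.19, interval -0.88 to -0.08, unadjusted p = 0.0223, adjusted p = 0.713), and -0.35 without Rragc+/+ replicate 2. When each column was rescaled to the same total, neither Bnip3 nor Nbr1 kept its genotypes apart.

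Nbr1, a receptor that gathers ubiquitinated proteins beside p62, had 56.6, 42.1, 58.1, 65.1 and 65.2 in Rragc+/+ and 76.3, 68.1, 76.1 and 73.2 in RragcS74N/+. All 4 RragcS74N/+ values were above all 5 Rragc+/+ values, by 2.95 between the nearest pair. The log2 change was 0.36 (SE 0.18, interval -0.02 to 0.75, unadjusted p = 0.0626, adjusted p = 0.713), and 0.26 without Rragc+/+ replicate 2. Sqstm1, which encodes p62 and is a known TFEB target, had 350.4, 455, 366, 424 and 298 in Rragc+/+ and 355, 349, 340.4 and 276 in RragcS74N/+. RragcS74N/+ replicates 1 to 3 sat in the lower part of the Rragc+/+ range and replicate 4 below it, with a log2 change of -0.19 (SE 0.17, interval -0.55 to 0.17, adjusted p = 0.746). It was -0.12 without Rragc+/+ replicate 2, -0.11 without RragcS74N/+ replicate 4 and 0.01 with the 3′ GC trend removed.

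Bnip3l, which encodes NIX, the mitochondrial receptor known from the clearance of mitochondria in reticulocytes, had 381, 237, 361, 371 and 475 in Rragc+/+ and 491, 408, 466 and 435 in RragcS74N/+. Only Rragc+/+ replicate 5 reached the RragcS74N/+ range, and the log2 change was 0.33 (SE 0.19, interval -0.08 to 0.74, adjusted p = 0.713). It was 0.19 without Rragc+/+ replicate 2 and 0.44 without replicate 5. Erythroid markers went the other way: 7 of 8 were listed, their sum ran from 1097 to 5565 in Rragc+/+ and from 377 to 2116 in RragcS74N/+, and all 6 that were tested had a negative log2 change (5 with unadjusted p under 0.05, smallest adjusted p 0.713). Alas2 was at 0 in RragcS74N/+ replicate 2. Alas2 and Bpgm had RragcS74N/+ means of 5.32 and 9.89, under the filter of 10, and were tested through their Rragc+/+ level. The part of erythroid RNA in the Bnip3l level was not tested. Optn and Calcoco1, receptors for damaged mitochondria and for the endoplasmic reticulum, had lower means in RragcS74N/+ (32.7 to 23.2 and 20.2 to 14.2) with log2 changes of -0.46 and -0.47 and adjusted p of 0.713 for each. Optn had -0.31 without Rragc+/+ replicate 2, and Calcoco1 had -0.30 without Rragc+/+ replicate 3 and -0.22 with the 3′ GC trend removed. Tax1bp1, a ubiquitin receptor, was the most abundant of the 7, with 671 ± 93.1 (SD, n = 5) and 732 ± 128 (SD, n = 4), and made up 35.3% to 46.3% of their sum in every library.

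Of the fusion and extraction genes 2 were listed. Vcp, the ATPase that pulls ubiquitinated proteins out of complexes, had 346, 346, 323, 363 and 293 in Rragc+/+ and 317, 288, 371 and 286 in RragcS74N/+. These ranges overlapped, with a log2 change of -0.09 (SE 0.15, adjusted p = 0.862). Stx17, the SNARE that drives fusion with the lysosome, had 66.5 and 66.7.

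The stages were then set side by side by a score, the mean over a stage's genes of log2(value + 1) after each gene was centred on its own mean. Initiation genes scored 0.03 ± 0.13 (SD, n = 5) for the controls and -0.03 ± 0.13 (SD, n = 4) for RragcS74N/+. Conjugation genes scored -0.01 ± 0.09 (SD, n = 5) and 0.01 ± 0.10 (SD, n = 4). For cargo receptors the scores were 0.05 ± 0.12 (SD, n = 5) and -0.06 ± 0.07 (SD, n = 4). All 3 stages overlapped between genotypes. Genotype means differed by -0.06 for initiation, 0.02 for conjugation and -0.11 for cargo receptors, beside pooled SDs between libraries of 0.13, 0.097 and 0.10. Without Rragc+/+ replicate 2 the median log2 change of conjugation genes was -0.02, down from 0.13. Among the genes with a mean of at least 50, that of cargo receptors was 0.12 in place of -0.19.

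**Figure D4:**
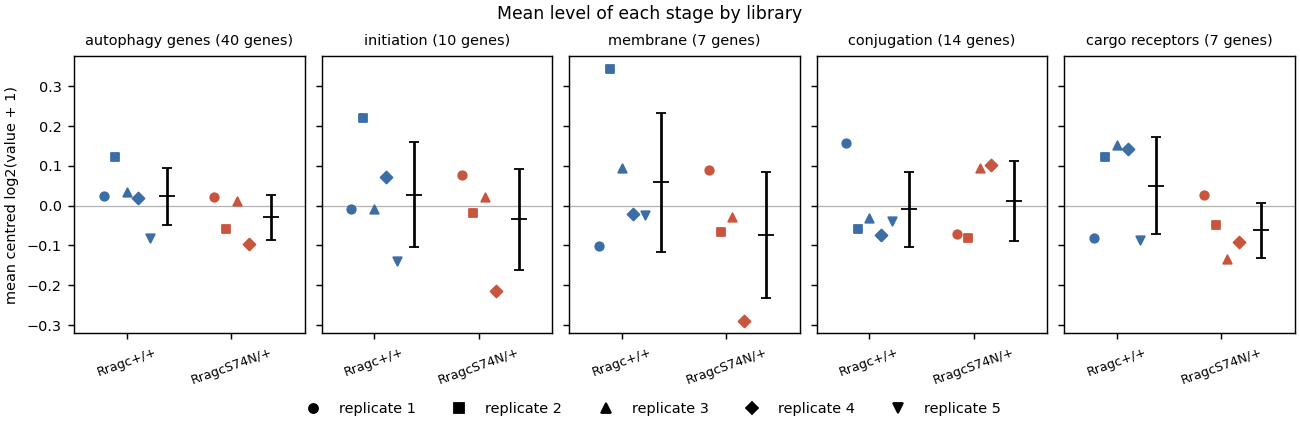
Mean centred log2(value + 1) of all 40 autophagy genes and of 4 stages in each library, with the mean and SD of each genotype. Every stage overlaps between genotypes, and Rragc+/+ replicate 2 has the highest score of the 9 libraries over the 40 genes together, for initiation and for membrane supply.

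Ratios between paralogs do not depend on the size factor of a library. A set of 9 pairs was formed after the values had been seen, so they are given without a test. In 8 pairs, Ulk1 to Ulk2 and Map1lc3b to Map1lc3a among them, the ratios of the genotypes overlapped. Only Bnip3l to Bnip3 did not: the ratio was 3.55, 1.47, 3.32, 3.61 and 4.94 in Rragc+/+ and 5.29, 5.49, 6.25 and 5.20 in RragcS74N/+. Bnip3 by itself did not overlap between genotypes, so this ratio is not a separate result, and no share over other gene pairs was computed. The lowest ratio belonged to Rragc+/+ replicate 2 and the highest Rragc+/+ ratio to replicate 5, close under the RragcS74N/+ values. Ulk1 to Ulk2 was 1.59 ± 0.469 (SD, n = 5) against 1.64 ± 0.321 (SD, n = 4).

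Base composition moved with the differences. GC content of the last 500 bases of the annotated transcript was found for all 40 genes, from 31.6% for Tax1bp1 to 58.8% for Map1lc3a. Across the 39 tested genes, Spearman's rho between GC content and log2 change was -0.64, and across 6556 tested genes with a value it was -0.46. These are relations across genes of the same 9 libraries, and genes are not independent replicates. GC-rich Map1lc3a, Atg2a and Atg101 were at the negative end, and GC-poor Atg4a was at the positive end. Bnip3, at 36.6% GC, lay away from the trend. The excess of Rragc+/+ replicate 2 over the other Rragc+/+ libraries rose with GC content, with rho 0.45 over the 39 genes and 0.34 over all. Replicate 2 is also part of the Rragc+/+ mean in the log2 change, so both relations share data and their opposite signs are partly built in. With each library's trend on GC content removed, the log2 change of 25 of the 39 genes came nearer to 0 and 7 changed sign. The shares over all genes tested were not computed, so these counts do not set the autophagy genes apart. Map1lc3a, Atg2a and Atg101 went to -0.17, -0.13 and -0.13, Map1lc3b turned from -0.08 to 0.19 and Sqstm1 from -0.19 to 0.01, and the cargo receptor median moved from -0.19 to -0.021. Atg7 (-0.49) and Bnip3 (-0.57) kept an unadjusted p under 0.05, and Bnip3 and Nbr1 (0.30) kept their separation. At the adjusted threshold 0 genes passed, and 3.72% of all genes had an unadjusted p under 0.05 and 1.13% did not overlap. Spread was wider among the controls, whose coefficient of variation was the larger for 27 of the 39 genes (69.2%, against 62.1% of all genes).

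**Figure D5:**
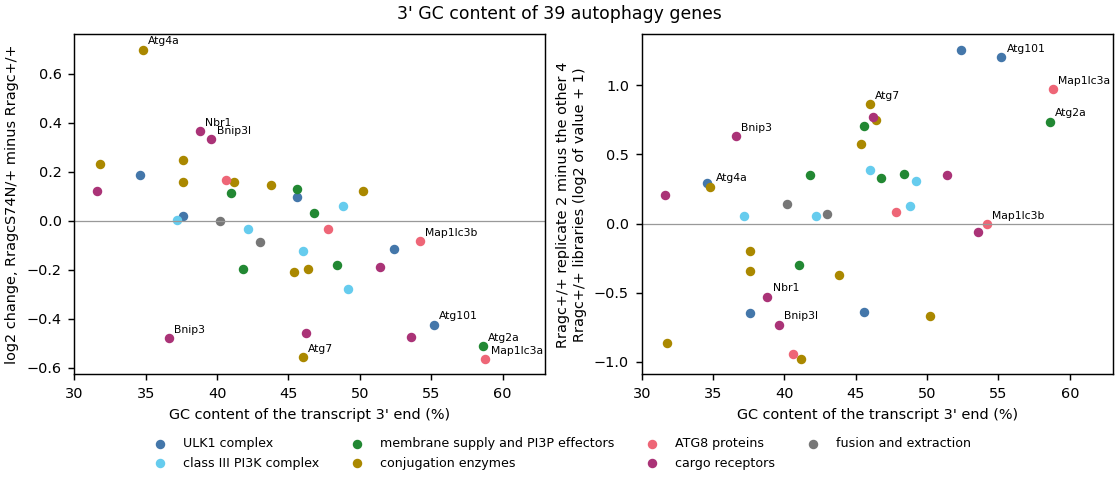
Left, log2 change (RragcS74N/+ minus Rragc+/+) of the 39 tested autophagy genes against GC content of the transcript 3′ end. Right, difference between Rragc+/+ replicate 2 and the mean of the other 4 Rragc+/+ libraries on log2 of value + 1, with points coloured by role. GC-rich genes such as Map1lc3a lie low on the left and high on the right. The panels share data, because Rragc+/+ replicate 2 is part of the Rragc+/+ mean on the left.

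Further autophagy genes, drawn up in 3 lists beside the members, were read from the same fit. Of 14 other cargo receptors 12 were tested, 7 with a positive and 5 with a negative log2 change (median 0.07), and Retreg2, a receptor of the endoplasmic reticulum, had the smallest p. Its mean of 116 ± 43.4 (SD, n = 5) compared with 75.9 ± 11.1 (SD, n = 4) for RragcS74N/+, with a log2 change of -0.55 (SE 0.24, unadjusted p = 0.0358, adjusted p = 0.713), which was -0.36 without Rragc+/+ replicate 2 and -0.34 with the 3′ GC trend removed. Bcl2l13, a mitochondrial receptor, was the only gene of the 33 tested in these lists whose genotypes did not overlap, against 1.69% of all genes. It had 15.8, 14.0, 14.1, 13.7 and 13.03 in Rragc+/+ and 27.2, 16.3, 18.8 and 19.9 in RragcS74N/+ (log2 change 0.49, SE 0.23, unadjusted p = 0.0553, adjusted p = 0.713). When each column was rescaled to the same total, its genotypes overlapped. Of 18 genes of autophagosome maturation and fusion 12 were tested, 4 positive and 8 negative (median -0.11). Epg5, a tether between autophagosomes and lysosomes, had 8.77 ± 5.26 (SD, n = 5) and 15.0 ± 2.31 (SD, n = 4), with a log2 change of 0.86 (SE 0.37, unadjusted p = 0.0377, adjusted p = 0.713) and 0.77 without Rragc+/+ replicate 2. Of 12 upstream kinases and transcription factors 9 were tested, 4 positive and 5 negative (median -0.02). Tfeb itself had 85.6, 145, 112, 72.3 and 55.1 in Rragc+/+ and 65.6, 54.9, 77.6 and 44.9 in RragcS74N/+, with a log2 change of -0.57 (SE 0.27, unadjusted p = 0.0505, adjusted p = 0.713). Rragc+/+ replicate 2 was again its highest library, the genotypes overlapped, and the change was -0.39 without that library and -0.12 with the 3′ GC trend removed. Over the 33 tested genes of these lists the adjusted p was at least 0.713. An unadjusted p under 0.05 was reached by 2, Retreg2 and Epg5, against 5.81% of all genes. Epg5 entered that count only through its RragcS74N/+ level.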

How the data were processed

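RNA of bone-marrow neutrophils was read in 9 libraries, 5 Rragc+/+ and 4 RragcS74N/+, grouped by the genotype in the labels. The authors made 3′-end libraries with molecular identifiers and, per the study's methods and processing notes, aligned reads to GRCm39 with TopHat2 (2.0.10) and counted them by strand with HTSeq (0.6.1). The deposited values are a signal, gene read counts that the authors divided by 1 size factor per library with DESeq2. The sources used here do not say whether identifiers were used to collapse reads or how the genes in the table were filtered.

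Values were taken as log2(value + 1), a scale that understates the change of low genes. The test was limma (3.58.1, R 4.3.3) on genes averaging at least 10, with trended moderation, genotype as the one term, and Benjamini-Hochberg adjustment over all genes with a threshold of 0.05. The fit was also run on simulated counts. These had no GC trend and no outlying library, so that run does not check the fit against those features. Whole reads recovered from 8 columns (from 1214295 to 1973957 per library) were tested with edgeR (4.0.16) and DESeq2 (1.42.0). Promoters came from RefSeq (GRCm38.p6). GC content, near-identical copies (at least 95% over at least 75 bases) and overlaps came from GENCODE of GRCm38, not the authors' build. The members and the other lists were chosen with earlier results of these data known. Values in every library are given for members that do not overlap, have an unadjusted p under 0.05 or the smallest p in their role, and for Ulk1, Becn1, Map1lc3b, Sqstm1 and Bnip3l. Vmp1, Optn, Calcoco1, Atg3, Atg4a and Bcl2l13 were added after their values were seen.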

Additional observations from a re-analysis of the deposited data

Results flagged for a closer look

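Among 94 sets of values, the genes and stage scores in each genotype, 5 held a library far from the rest of its genotype by Dixon's ratio (the gap to the nearest library over the whole range, taken on log2 of value + 1 or on the score), where chance gives about 4.7. Bnip3 in Rragc+/+ replicate 2 was the highest control at 161 against 109 for the next, a ratio of 0.764. Sqstm1 in RragcS74N/+ replicate 4 was the lowest of its genotype at 276 against 340.4, a ratio of 0.836. Zfyve1 in Rragc+/+ replicate 1 was lowest at 4.61 against 9.02, a ratio of 0.807, at a level of few reads. The conjugation score of Rragc+/+ replicate 1 was the highest control at 0.16, a ratio of 0.820. The score of the 2 fusion and extraction genes in Rragc+/+ replicate 5 was the lowest control at -0.27, a ratio of 0.854.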

How the results depend on the processing

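Across 20 alternatives, 0 autophagy genes had an adjusted p under 0.05, and DESeq2 on 8 libraries called 2 genes of the whole table. Of the 39 tested members, 21 kept the sign of their log2 change in every alternative that gave one and 18 did not. Without one library at a time, the count with an unadjusted p under 0.05 ran from 1 to 8 (all genes 3.02% to 13.7%) and the count of genes that did not overlap from 2 to 4 (all genes 1.94% to 6.32%), the median change of conjugation genes from -0.021 to 0.16, the change of Rragc from -0.15 to 0.0011, of Ulk1 from -0.033 to 0.29, of Becn1 from -0.12 to 0.035 and of Vmp1 from -0.086 to 0.26. Array quality weights gave 5 genes with an unadjusted p under 0.05 (all genes 11.5%). Columns rescaled to the same total left 0 genes that did not overlap (all genes 1.20%). With a mean of at least 50 the cargo receptor median was 0.12. The other alternatives were chosen after seeing the data. On 8 libraries, without Rragc+/+ replicate 5, edgeR gave 8 genes with an unadjusted p under 0.05 (all genes 13.4%), 4 that did not overlap (all genes 6.32%), a median change of -0.082 over all members and -0.092 for Ulk1, where DESeq2 gave 7 (all genes 12.7%), 4 and, for Ulk1, -0.071. With the 3′ GC trend removed, the cargo receptor median was -0.021, Map1lc3b was 0.19 and Sqstm1 0.011. Without the 3 libraries with the highest Prg2, 1 gene had an unadjusted p under 0.05 (all genes 4.41%), 9 did not overlap (all genes 14.5%), Becn1 was 0.10 and Vmp1 -0.20. The cause was not tested. Scaling by TMM and the fits of edgeR and DESeq2 to all 9 libraries were not run. No paired analysis was possible because no label numbers the replicates.

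With 5 and 4 libraries, the median standard error of a member's log2 change was 0.21. A change of that size in a single gene was not detectable here, and a larger one need not be. The largest change of all genes tested, -2.16 for Alas2, had an adjusted p of 0.713 with limma.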
